A study of Homo sapiens with 12 samples.

Results

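The mitochondrial ribosomal proteins described here were the 78 protein-coding genes, of 60675 genes in the table, whose symbol is MRPL or MRPS followed by a number and at most 1 letter. The rule uses symbol and class and no measured value, and all 78 were among the 15303 genes that passed the filter on low values. RNA was sequenced from MCF10A, a human breast epithelial line that is immortal but does not form tumours. The study screened for genes whose loss alters the response of these cells to radiation. It reported that cells without IL1R1 or IL1RAP, of the interleukin-1 pathway, were more resistant to it. The 12 libraries formed 6 groups of 2: cells labelled IL1R1-KO RT, IL1RAP-KO RT and WT RT, which had received 20 Gy of ionising radiation (RT), and the untreated cells of the same 3 genotypes. Interleukin-1 binds to IL1R1, and signalling then needs the accessory chain IL1RAP. The KO cells were puromycin-selected pools transduced with a lentiviral vector that carries Cas9 and a guide RNA, not clones, so cells with an intact gene can remain among them. Which guide each library came from and the time between RT and RNA extraction are not given in the sources used here.

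The values were the authors' TPM, which correct reads for gene length and for the library total. They were divided here by a trimmed mean factor for each library and are called scaled TPM. Log2 fold changes are on the scale of log2(scaled TPM + 1), with RT over untreated or KO over WT, and p-values from limma were adjusted by Benjamini-Hochberg over all 15303 genes. A gene was called where its adjusted p was under 0.05 and it changed by more than 2-fold. TPM do not hold the number of reads, and sequencing depth is therefore unknown. In bulk RNA, fewer cells of a kind and less RNA per cell cannot be told apart. IL1RAP was at 4.39 and 4.96 scaled TPM in untreated IL1RAP-KO cells, against 17.96 and 20.69 in untreated WT cells. IL1R1 was at 11.0 and 7.79 scaled TPM in untreated cells labelled IL1R1-KO, against 10.6 and 9.44 in WT cells, so its mRNA level gave no check of that label. The study checked its KO cells by protein. It reported that interleukin-1 led to breakdown of IκBα, the inhibitor of NF-κB, in wild-type cells. The IL1R1 and IL1RAP KO cells resisted this breakdown, and IL1RAP protein was depleted in the IL1RAP ones. Transcripts of mitochondrial DNA took 36.9% to 57.0% of the TPM after RT, against 18.3% to 21.1% in untreated cells. The 57.0% was that of IL1RAP-KO RT replicate 2. Over the mitochondrial ribosomal protein genes alone, the median difference between the 2 libraries of that group, regardless of sign, was 0.18 on the log2 scale. The same median was 0.07 to 0.10 in the other groups. The basal keratins KRT5, KRT17 and KRT14 were at 854 to 2846, 480 to 1210 and 27.6 to 83.3 scaled TPM. Luminal markers were present too, with KRT18 at 119.6 to 305.5, KRT8 at 76.75 to 172.6 and GATA3 at 6.4 to 15.7. Of the 7 luminal markers, 3 stayed under 1 scaled TPM in every library. Summed, the 7 were at 244.4 to 289.1 after RT and 435.1 to 484.5 untreated. Of the markers of other cell types, 6 of 7 for leukocytes, 4 of 7 for fibroblasts and 2 of 5 for endothelium stayed under 1 scaled TPM in every library, with COL1A2 of fibroblasts at 0. The exceptions included DCN of fibroblasts, at 16.5 to 89.5 scaled TPM, and CD14 of leukocytes, at 5.63 to 75.5. DCN was called higher after RT in all 3 genotypes, with log2 fold changes of 1.31, 1.33 and 1.83 in cells labelled IL1R1-KO, IL1RAP-KO and WT. The summed markers were at 2371 to 4148 scaled TPM after RT and 4421 to 5408 untreated for the 11 basal ones. In the same order they were at 43.3 to 91.1 and 17.9 to 22.9 for fibroblasts. For leukocytes they were at 27.1 to 76.8 and 5.97 to 20.2, and for endothelium at 7.499 to 10.99 and 3.286 to 5.039. The basal markers did not all fall. Their median log2 fold changes for RT were 0.129, 0.007 and -0.474 in cells labelled IL1R1-KO, IL1RAP-KO and WT. At an adjusted p under 0.05, 4, 4 and 6 of the 11 were lower and 3, 2 and 1 were higher. The part of the markers of any cell type in the RT results was not tested.

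The mitochondrial ribosome makes the proteins encoded by mitochondrial DNA, all of which are core subunits of the respiratory chain and ATP synthase. Its ribosomal RNAs come from mitochondrial DNA, while its proteins are encoded in the nucleus, made in the cytosol and imported. Many of the proteins descend from those of bacterial ribosomes, and others were gained in mitochondria. The subunits therefore depend on 2 genomes, and their nuclear genes are scattered over the chromosomes. Here they lay on 21 chromosomes, with 8 each on chromosomes 1, 2 and 17. Of the 78, 51 belong to the large subunit and 26 to the small one, and MRPS36, known today mainly as a part of the oxoglutarate dehydrogenase complex, was put in neither. By ancestry 46 were of bacterial families and 31 specific to mitochondria.

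Promoters of 69 members were found in the RefSeq table for GRCh38.p14. The core of ETS factors, such as GABPA, is CCGGAAG, and it stood on either strand in the 250 bases before the start of 33.3% of these members and of 8.82% of all 27305 promoters. The core of NRF1, GCGCATG, was in 10.1% of members and in 3.96% of all promoters. YY1's core AAGATGG was in 10.1% and 3.77%, the E-box CACGTG in 8.7% and 6.49%, and the SP1 core GGGCGG in 55.1% and 42.3%. These are matches of letters, not sites of binding. The sequences below are the stretches before the starts of the 3 members with the lowest and the 3 with the highest average RT change, and of the 3 with the highest mean level, among members with an entry and at least 100 bases left before an exon of the gene, so that promoters of members with different RT changes can be read side by side. MRPL23 had no entry, and MRPS2, with an SP1 core in the 250 bases searched, had 38 bases left, so neither is shown. By the GENCODE v44 annotation the genes MRPL11, MRPL51 and MRPS6 begin farther upstream than the RefSeq start used. Their stretches therefore lie within the span of the gene. The stretches are at most 150 bases long, are written 5′ to 3′ on the strand of the gene, end at the RefSeq start or where an exon of the gene begins, and have any of the 5 cores in capitals.
MRPL11 (chr11:66438849-66438998, minus strand): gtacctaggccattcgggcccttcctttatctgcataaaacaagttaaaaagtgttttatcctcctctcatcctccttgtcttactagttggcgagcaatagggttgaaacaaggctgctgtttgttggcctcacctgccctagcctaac
MRPS12 (chr19:38930794-38930943, plus strand): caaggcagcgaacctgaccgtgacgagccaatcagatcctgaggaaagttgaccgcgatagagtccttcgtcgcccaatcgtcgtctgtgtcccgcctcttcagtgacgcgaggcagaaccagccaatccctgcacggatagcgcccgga
MRPL12 (chr17:81703217-81703366, plus strand): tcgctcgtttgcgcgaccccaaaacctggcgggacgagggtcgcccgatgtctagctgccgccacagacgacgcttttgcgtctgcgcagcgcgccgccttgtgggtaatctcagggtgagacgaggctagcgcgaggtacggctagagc
MRPL49 (chr11:65122033-65122182, plus strand): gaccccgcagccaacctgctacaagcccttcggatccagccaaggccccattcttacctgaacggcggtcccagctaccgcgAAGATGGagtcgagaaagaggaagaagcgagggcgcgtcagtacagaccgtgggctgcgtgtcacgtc
MRPL40 (chr22:19432395-19432544, plus strand): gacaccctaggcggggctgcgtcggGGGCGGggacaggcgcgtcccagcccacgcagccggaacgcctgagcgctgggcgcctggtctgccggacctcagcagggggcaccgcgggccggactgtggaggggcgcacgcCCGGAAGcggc
MRPS6 (chr21:34073428-34073548, plus strand): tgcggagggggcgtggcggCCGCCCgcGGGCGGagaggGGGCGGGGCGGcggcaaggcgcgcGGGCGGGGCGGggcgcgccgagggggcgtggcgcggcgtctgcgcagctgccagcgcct
MRPL33 (chr2:27771569-27771716, plus strand): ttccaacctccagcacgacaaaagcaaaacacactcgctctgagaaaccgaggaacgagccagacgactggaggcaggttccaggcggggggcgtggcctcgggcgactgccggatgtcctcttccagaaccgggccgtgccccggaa
MRPL3 (chr3:131502984-131503121, minus strand): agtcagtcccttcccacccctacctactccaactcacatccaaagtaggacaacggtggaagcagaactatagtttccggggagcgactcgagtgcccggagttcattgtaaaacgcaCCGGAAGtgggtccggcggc
MRPL51 (chr12:6493296-6493412, minus strand): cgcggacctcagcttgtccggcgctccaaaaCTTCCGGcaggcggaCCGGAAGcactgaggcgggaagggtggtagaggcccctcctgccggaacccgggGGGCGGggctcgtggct
MRPL11, MRPS12 and MRPL12, which fell after RT, held none of the 5 cores in these stretches, but MRPS12 held a YY1 and an SP1 core in the 250 bases searched. In those 250 bases MRPL33 likewise held an ETS core and MRPL49 an E-box, neither of them within the stretch shown. MRPL3, which fell, and MRPL40, which did not pass the test, each held an ETS core. MRPL51 held the ETS core on both strands, and MRPS6 a run of SP1 cores. Over the 69 members, the median log2 fold change for RT averaged over the genotypes was -0.74 both in the 23 with an ETS core and in the 46 without one. It was -0.56 in the 7 with an NRF1 core and -0.75 in the 62 without.

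After RT, the mRNAs of most mitochondrial ribosomal proteins were lower in every genotype. At an adjusted p under 0.05, 64 of the 78 fell in cells labelled IL1R1-KO, as did 66 in IL1RAP-KO cells and 66 in WT cells. These were 82.1%, 84.6% and 84.6% of the members, where 25.6%, 26.9% and 23.5% of all genes tested were lower by the same rule. No member rose in cells labelled IL1R1-KO, and MRPS6 rose in the other 2 genotypes, where 22.6%, 23.2% and 19.9% of all genes did. Its rise in IL1RAP-KO did not hold in every alternative, as given with its values. The shift was moderate in size. The median member had a log2 fold change of -0.77 in cells labelled IL1R1-KO, -0.75 in IL1RAP-KO and -0.65 in WT, while the median of all genes lay at 0.01, 0.00 and 0.00. Past the 2-fold threshold, 20, 24 and 12 members were called lower, or 25.6%, 30.8% and 15.4% of them, against 8.16%, 9.18% and 6.16% of all genes. None was called higher, where 8.16%, 8.21% and 7.05% of all genes were.

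**Figure D1:**
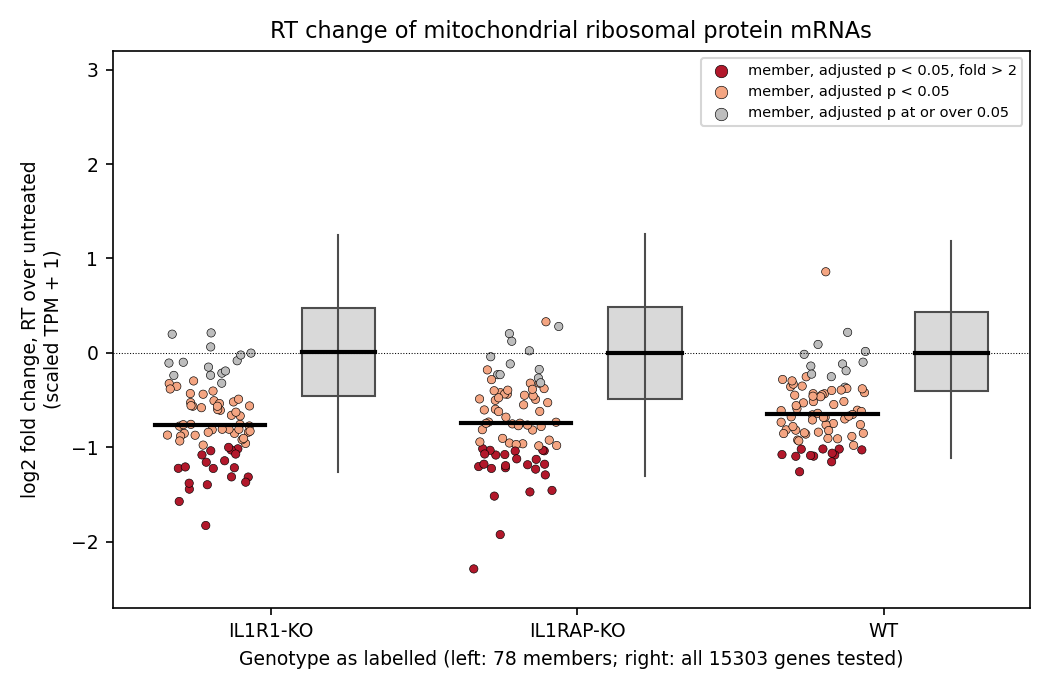
Log2 fold change for RT over untreated on the y axis, for the 78 members (points, with a bar at their median) and for all 15303 genes tested (box from the 25th to the 75th percentile, bar at the median, line from the 5th to the 95th) in each genotype on the x axis. Most points lie below 0 and the members' medians of -0.77, -0.75 and -0.65 lie below those of all genes, with MRPS6 in WT the highest point at 0.86.

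In each genotype the irradiated and untreated libraries stood apart for nearly all members. Both RT libraries lay below both untreated libraries for 71 members in cells labelled IL1R1-KO, 70 in IL1RAP-KO and 70 in WT, against 37.6%, 36.6% and 37.6% of all genes. The geometric mean of the 78 was 38.2 to 42.7 scaled TPM in the 6 RT libraries and 64.2 to 66.0 in the 6 untreated ones. In all 3 genotypes 61 members fell at an adjusted p under 0.05, and 10 were called in all 3. The shares of all genes by these joint rules are not given here. They cannot exceed the lowest shares in a single genotype, 23.5% and 6.16%, both in WT. Without IL1RAP-KO RT replicate 2, 63 members fell in IL1RAP-KO cells and 21 were called, with a median of -0.75. The 3 comparisons used no library in common, and over the 78 members their log2 fold changes correlated at r = 0.89 between the 2 KO genotypes, 0.82 between IL1R1-KO and WT and 0.84 between IL1RAP-KO and WT.

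The size of the decrease depended on the scaling of the libraries, and the number past the 2-fold threshold depended on it most. With TPM scaled to the sum of nuclear protein-coding genes the median of all genes itself shifted by 0.40, 0.33 and 0.10 in cells labelled IL1R1-KO, IL1RAP-KO and WT, and 41, 43 and 56 members were then lower at an adjusted p under 0.05, or 52.6%, 55.1% and 71.8%, against 12.2%, 14.6% and 18.7% of all genes. With it 8, 7 and 2 members were higher, or 10.3%, 8.97% and 2.56%, against 44.9%, 41.1% and 23.3% of all genes. The members called lower were then 2, 5 and 2, or 2.56%, 6.41% and 2.56%, against 3.70%, 4.48% and 4.72% of all genes, so at 2-fold they were near the background. With TPM as deposited 18, 43 and 30 were called lower, or 23.1%, 55.1% and 38.5%, against 7.98%, 16.5% and 10.8% of all genes. Relative to the median of all genes, the members' median was -0.78, -0.75 and -0.65 with the trimmed mean factors, -0.78, -0.82 and -0.70 with TPM as deposited and -0.71, -0.68 and -0.63 with the nuclear protein-coding sum. Across these 3 scalings and median-of-ratios factors, 54 of the 78 members had a negative log2 fold change in all 3 genotypes. At an adjusted p under 0.05, 37 of the 78 were lower in each. The shares of all genes by these joint rules are not given here. They cannot exceed those in cells labelled IL1R1-KO with the nuclear protein-coding sum, 4229 of 15303 genes and 12.2%.

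Averaged over the 3 genotypes, 70 members fell and 2 rose at an adjusted p under 0.05, where 33.6% of all genes were lower and 33.6% higher. Of these, 18 were called lower and none higher, against 7.01% and 6.67% of all genes. MRPL23, a counterpart of a bacterial protein at the exit of the tunnel for the growing chain, was lowered most. It was at 11.4 and 12.6 scaled TPM in cells labelled IL1R1-KO RT, against 48.7 and 41.7 in untreated cells with that label. The levels were 11.0 and 6.44 in IL1RAP-KO RT cells, against 47.4 and 43.2 in untreated IL1RAP-KO cells, and 18.8 and 18.5 in WT RT, against 44.4 and 37.3 in WT. All 6 RT libraries thus lay below all 6 untreated ones. The average log2 fold change was -1.73 (standard error 0.11, adjusted p = 5.34e-07 from limma), or 0.301 of the untreated level.

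MRPL11, of the stalk base where translation factors bind, was at 19.1 and 23.6 scaled TPM in cells labelled IL1R1-KO RT, against 63.2 and 67.3 untreated. It was at 24.9 and 17.6 in IL1RAP-KO RT, against 59.96 and 59.74 untreated, and at 27.80 and 25.96 in WT RT, against 65.3 and 66.1 in WT. It was 1 of the members called in all 3 genotypes, and its average log2 fold change was -1.43 (standard error 0.09, adjusted p = 2.9e-07 from limma). MRPS12, of the decoding centre, was at 14.96 and 17.58 in cells labelled IL1R1-KO RT, against 35.4 and 43.0 untreated. It was at 13.3 and 6.47 in IL1RAP-KO RT, against 40.7 and 35.8 untreated, and at 25.7 and 20.3 in WT RT, against 41.7 and 42.0 in WT. The RT and untreated libraries did not overlap, and the average log2 fold change was -1.33 (standard error 0.15, adjusted p = 2.33e-05 from limma).
MRPS2, a small subunit protein, averaged -1.31 on the log2 scale (standard error 0.06, adjusted p = 7.12e-08 from limma), with 23.2 to 34.8 scaled TPM over the RT libraries and 61.9 to 74.2 over the untreated ones.

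**Figure D2:**
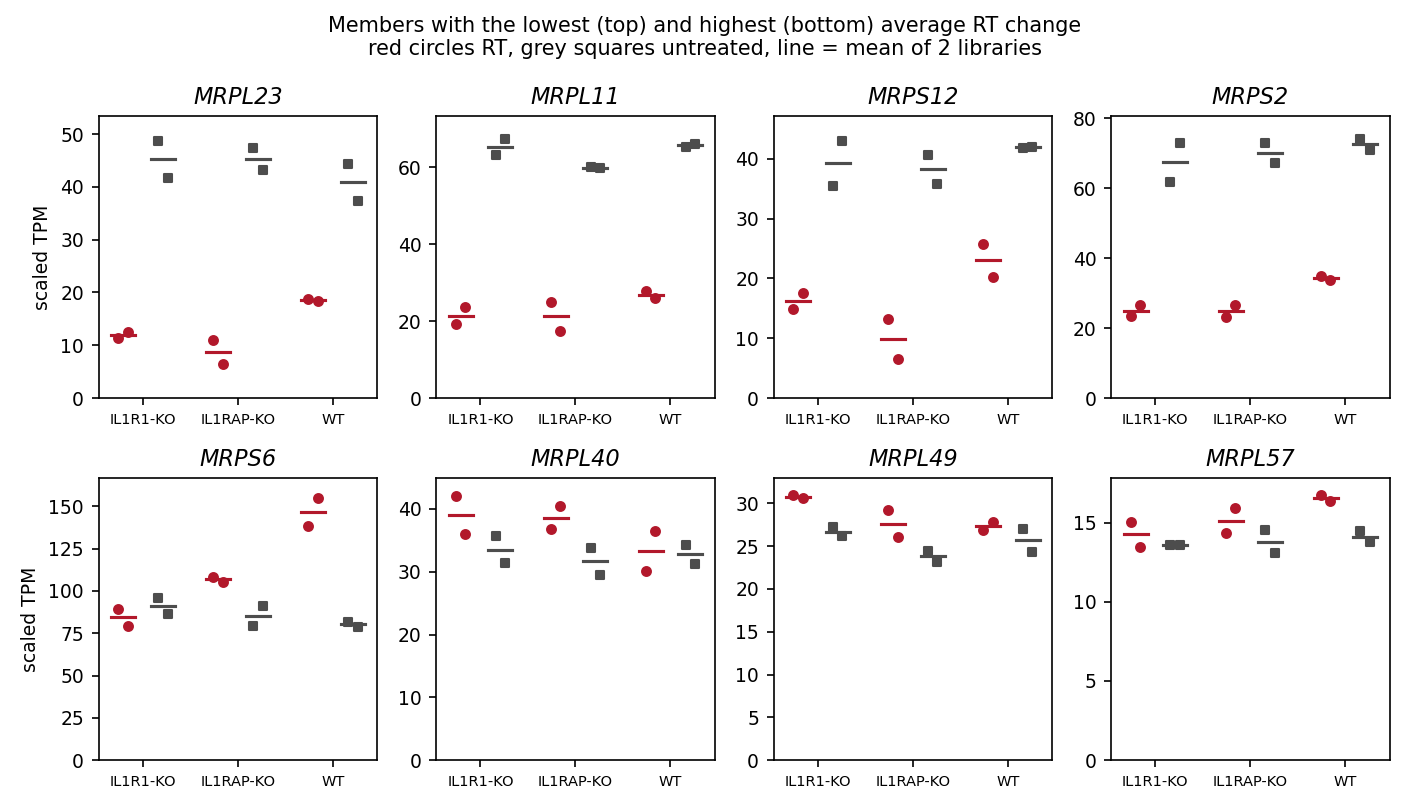
Scaled TPM per library on the y axis, from 0, for the 4 members with the lowest average RT change (top row) and the 4 with the highest (bottom row), by genotype on the x axis, with red circles for RT, grey squares for untreated cells and lines at the mean of 2 libraries. In the top row every RT library lies below every untreated one, as for MRPL23 with 6.44 to 18.8 after RT and 37.3 to 48.7 untreated, while in the bottom row the points of most groups lie close together apart from MRPS6 in WT RT.

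The other 7 members called in all 3 genotypes were MRPL1, MRPL3, MRPL16, MRPL19, MRPL24, MRPL48 and MRPS9, beside MRPL11, MRPL23 and MRPS2. MRPL3, which reaches towards the peptidyl transferase centre, was among the most abundant members. It was at 82.3 and 83.5 scaled TPM in cells labelled IL1R1-KO RT, 87.7 and 108 for IL1RAP-KO RT and 105 and 102 for WT RT, against 207 to 238 in the 6 untreated libraries. Its average log2 fold change was -1.22 (standard error 0.05, adjusted p = 4.88e-08 from limma). MRPL1, of the L1 stalk, had -1.04, -1.04 and -1.10 in cells labelled IL1R1-KO, IL1RAP-KO and WT. MRPL48, specific to mitochondria, had -1.16, -1.19 and -1.08. MRPS15 was called in cells labelled IL1R1-KO and WT, with -1.07 and -1.02, and was just under 2-fold in IL1RAP-KO at -0.96.

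Of the members called in fewer genotypes, MRPL12, whose bacterial counterpart forms the flexible stalk that recruits translation factors, changed by -1.31 in cells labelled IL1R1-KO and by -1.52 in IL1RAP-KO. In WT it changed by -0.88, which passed the adjusted p but not the fold threshold. MRPL53 had -1.38, -1.29 and -0.93 in the same order. MRPL37, MRPS7 and MRPS27 were likewise called in both KO genotypes only, at -1.22, -1.14 and -1.21 in cells labelled IL1R1-KO, -1.03, -1.18 and -1.12 for IL1RAP-KO and -0.92, -0.84 and -0.78 for WT. MRPL15 and MRPS24 also passed in both KO genotypes, with -1.18 and -1.04 in IL1RAP-KO. MRPL58, a peptidyl-tRNA hydrolase that releases stalled chains and is built into the large subunit, was called in IL1RAP-KO (-1.08) and WT (-1.15) and had -0.66 in cells labelled IL1R1-KO. MRPL30 was called in cells labelled IL1R1-KO alone (-1.03), and MRPL4, MRPL9, MRPL14, MRPL54 and MRPS26 in IL1RAP-KO alone (-1.03, -1.01, -1.22, -1.23 and -1.07). None of these differences between genotypes passed the test of the difference of the responses.

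At the other end, 8 members passed the adjusted p in no genotype: MRPL33, MRPL34, MRPL40, MRPL49, MRPL57, MRPS10, MRPS11 and MRPS18B. A further member, MRPS6, was lower in none. MRPL33, a small protein of bacterial type, was among the most abundant members. It was at 154 and 149 scaled TPM in cells labelled IL1R1-KO RT, 166 and 182 for IL1RAP-KO RT and 150 and 172 for WT RT, against 165 to 177 in the untreated libraries. The groups overlapped, and its average log2 fold change was -0.08 (standard error 0.05, adjusted p = 0.193 from limma). MRPL40 had an average of 0.17 (standard error 0.07, adjusted p = 0.0663 from limma), with 30.0 to 42.1 scaled TPM in RT libraries and 29.5 to 35.7 in untreated ones. MRPL57, the member with the lowest mean level over the 12 libraries, was at 13.5 to 16.8 scaled TPM after RT and 13.1 to 14.5 untreated. MRPL49 was higher by 0.16 on average (standard error 0.05, adjusted p = 0.0188 from limma), with 26.05 to 30.95 scaled TPM after RT and 23.17 to 27.19 untreated, but had -0.03 with TPM as deposited.

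MRPS6, a small subunit protein of bacterial type, was the member that rose, and its response differed between genotypes. It was at 89.6 and 79.2 scaled TPM in cells labelled IL1R1-KO RT, against 95.6 and 86.4 in the untreated ones. In IL1RAP-KO RT it was at 108 and 105, against 79.2 and 90.9 untreated. In WT RT it was at 138 and 155, against 81.7 and 78.7 in WT. WT RT thus held the 2 highest of the 12 values, and the libraries labelled IL1R1-KO RT lay within the range of the untreated ones. The log2 fold changes were -0.11 (standard error 0.10, adjusted p = 0.402), 0.33 (adjusted p = 0.0199) and 0.86 (adjusted p = 0.000108, all from limma). The value in IL1RAP-KO was -0.02 with TPM as deposited, and its adjusted p from limma was 0.158 without IL1RAP-KO replicate 1, 0.0624 without IL1RAP-KO RT replicate 1 and 0.0716 with only the compared libraries. The response in cells labelled IL1R1-KO minus that in WT was -0.97 (standard error 0.14, adjusted p = 0.00782 from limma). It was -0.68 (adjusted p = 0.134 from limma) with TPM as deposited and -0.61 (adjusted p = 0.0417 from limma) with the nuclear protein-coding sum, and over the other alternatives its adjusted p was 0.00713 to 0.0487. For IL1RAP-KO the difference was -0.53 (adjusted p = 0.112 from limma).

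MRPS6 (chr21:34073224-34143034, plus strand, GENCODE v44 on GRCh38) shares its strand and its first part with SLC5A3 (chr21:34073578-34106260), a transporter of myo-inositol. SLC5A3 was at 14.85 and 11.5 scaled TPM in cells labelled IL1R1-KO RT, 16.6 and 17.35 for IL1RAP-KO RT and 30.6 and 38.4 for WT RT, against 11.0 to 16.7 in the untreated libraries. Its RT change was -0.05, 0.49 and 1.53 in these genotypes, and the difference of responses for cells labelled IL1R1-KO was -1.58 (adjusted p = 0.015 from limma). It had its 2 highest values in the same WT RT libraries as MRPS6. The overlap is that of GENCODE v44, while the authors counted reads over an Ensembl annotation that was not examined here. The part of the overlap in the MRPS6 result was not tested. Of the 78 members, 37 overlapped another coding gene on either strand. The median RT change of these 37 was -0.68 on average, against -0.74 in the 41 others. In the 13 that overlapped one on the same strand it was -0.58.

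**Figure D3:**
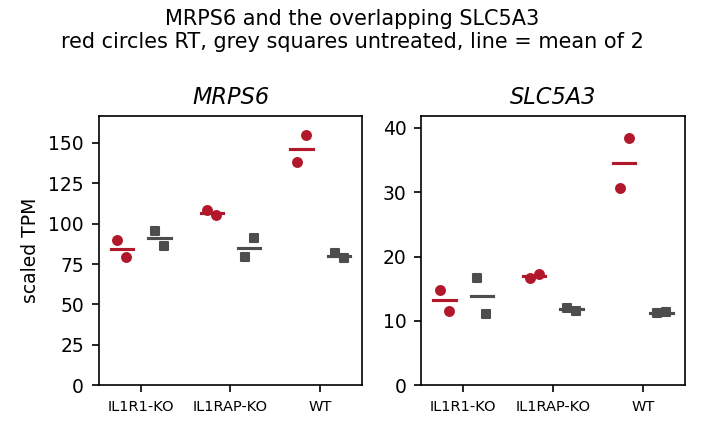
Scaled TPM per library on the y axis, from 0, of MRPS6 and of SLC5A3, which overlaps it on the same strand, by genotype on the x axis, with red circles for RT, grey squares for untreated cells and lines at the mean of 2 libraries. In both panels the WT RT libraries are highest, at 138 and 155 for MRPS6 and 30.6 and 38.4 for SLC5A3.

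The members of both subunits and both ancestries had medians below 0, and differences between the classes were not tested. The average RT change had a median of -0.73 over 51 large subunit members and -0.75 over 26 small subunit ones, with 46 and 23 of them lower at an adjusted p under 0.05. It was -0.75 over 46 members of bacterial families and -0.68 over 31 specific to mitochondria, with 42 and 27 lower. By ancestry, with bacterial families first, the medians in cells labelled IL1R1-KO were -0.82 and -0.63, with 16 of 46 and 4 of 31 called lower. They were -0.79 and -0.74 in IL1RAP-KO, with 17 and 7 called lower. In WT they were -0.69 and -0.61, with 10 and 2 called lower. Of all genes, 8.16%, 9.18% and 6.16% were called lower in these genotypes. The members differed in level by 12.4-fold after RT and 15.9-fold untreated, when each was averaged over its 6 libraries. Over all 12 libraries MRPL33, MRPL3, MRPL51 and MRPL32 had the highest mean levels and MRPL57, MRPS17, MRPL50 and MRPS31 the lowest. The order differed by treatment: after RT the lowest mean was that of MRPL23, at 13.1 scaled TPM, and MRPS6, at 113, came after MRPL33, while in untreated cells MRPL57 was lowest, at 13.8, and MRPL3 highest, at 220.2. Across the members, the untreated level correlated with the RT change at r = -0.34 (rho = -0.33, n = 78), and both come from the same untreated libraries. Transcript length correlated with it at r = 0.05. Relative to the members' own geometric mean, 26 members were lower and 27 higher at an adjusted p under 0.05 on average, so the members did not move by 1 common factor. MRPL23 lay lowest on that scale, at -1.07, and MRPS6 highest. The share of all genes past the same rule on that scale is not given here.

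The proteins around the mitochondrial ribosome were compared next, from lists put together with earlier results of these data known. In cells labelled IL1R1-KO, IL1RAP-KO and WT, 25.6%, 26.9% and 23.5% of all genes fell and 22.6%, 23.2% and 19.9% rose, and the counts below are in the same order. Of the 5 subunits of the mitochondrial ribosome that carry other names, 5 fell in cells labelled IL1R1-KO, 4 in IL1RAP-KO and 5 in WT, with medians of -0.91, -1.09 and -0.60. PTCD3, a small subunit protein with RNA-binding repeats, was at 39.5 to 64.0 scaled TPM after RT and 87.8 to 101 untreated (average log2 fold change -0.95, standard error 0.06, adjusted p = 6.4e-07 from limma). Of 28 factors for assembly and ribosomal RNA modification, 15, 17 and 14 fell and 3, 2 and 2 rose, with medians of -0.37, -0.39 and -0.31. Among them GRSF1, an RNA-binding protein of mitochondrial RNA granules, had an average of -1.23, and NGRN, which joins a module that acts on the large ribosomal RNA, had 1.29 (standard error 0.05, adjusted p = 2.84e-08 from limma). NGRN was at 122.1 and 116.5 scaled TPM in cells labelled IL1R1-KO RT, 113 and 126 for IL1RAP-KO RT and 88.8 and 104 for WT RT, against 42.3 to 46.7 untreated, with no overlap. Of 14 translation factors, 10, 6 and 8 fell and 0, 2 and 0 rose. OXA1L, which inserts newly made proteins into the inner membrane, had -1.09. Of 17 aminoacyl-tRNA synthetases, 13, 12 and 11 fell and none rose.

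Of 18 genes of mitochondrial DNA transcription and RNA stability, 12, 10 and 10 fell in cells labelled IL1R1-KO, IL1RAP-KO and WT, and 0, 0 and 1 rose. TFAM, which packages mitochondrial DNA and starts its transcription, was at 26.9 to 35.5 scaled TPM after RT and 65.2 to 72.1 untreated (average -1.16, standard error 0.06, adjusted p = 1.27e-07 from limma). SLIRP, which stabilises mitochondrial mRNAs, had -1.39. Of 9 regulators of mitochondrial biogenesis, 5, 4 and 6 fell and none rose. MYC was at 157 to 258 scaled TPM after RT and 259 to 335 untreated (average -0.69, adjusted p = 1.67e-05 from limma). Of 75 nuclear-encoded respiratory chain subunits, 68, 71 and 61 fell, with medians of -0.84, -0.94 and -0.65. Those of the mitochondrial ribosomal proteins were -0.77, -0.75 and -0.65, the same in WT and less low in both KO genotypes. The 82 cytosolic ribosomal proteins had medians of -0.85, -0.72 and -0.25, and 74, 70 and 28 of them fell.

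**Figure D4:**
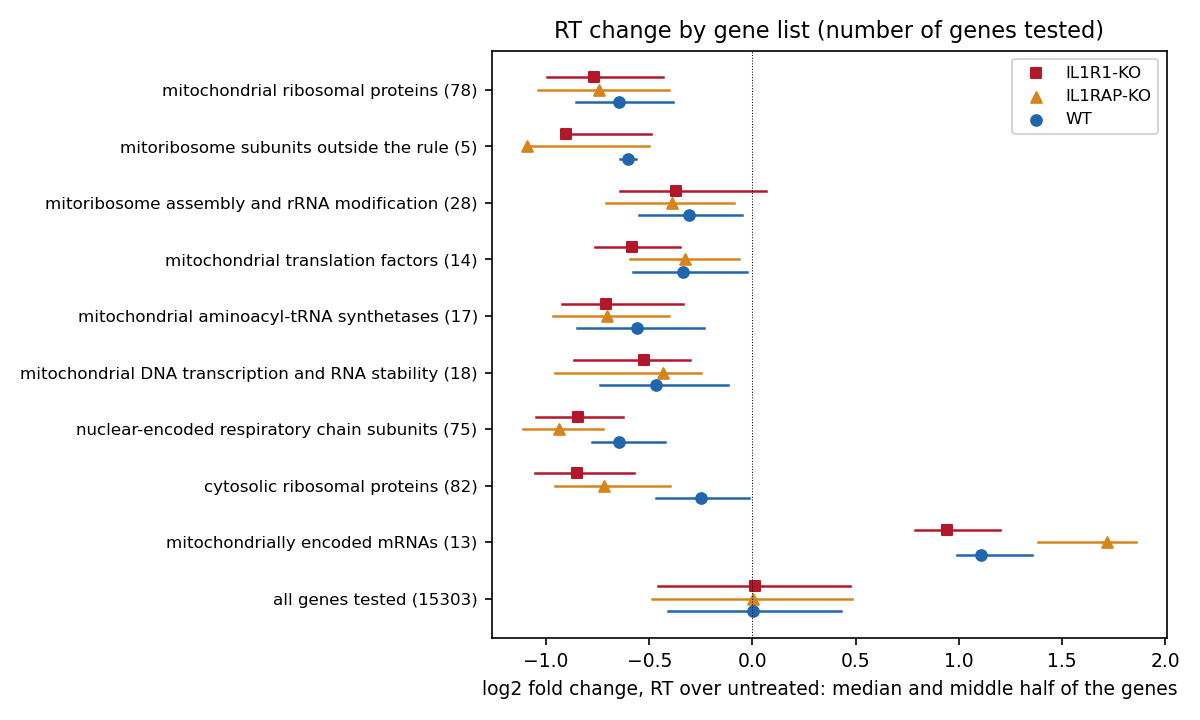
Median log2 fold change for RT over untreated on the x axis (symbols), with the middle 50% of the genes as lines, for each gene list on the y axis and each genotype by symbol, and with the number of genes tested in parentheses. The mitochondrial ribosomal proteins and the respiratory chain subunits lie on the low side in each genotype. The 13 mitochondrially encoded mRNAs lie at 0.94 to 1.72.

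The mRNAs that these ribosomes translate went the other way. Of the 13 mitochondrially encoded mRNAs, 11 rose in cells labelled IL1R1-KO, 13 in IL1RAP-KO and 12 in WT, with medians of 0.94, 1.72 and 1.11. Both mitochondrial ribosomal RNAs rose as well, in libraries from which ribosomal RNA had been depleted, so their levels depend on that step. Summed, the 78 members were at 3465 and 3505 scaled TPM in cells labelled IL1R1-KO RT, 3557 and 3582 for IL1RAP-KO RT and 3833 and 3841 for WT RT, against 5806 to 5900 in the untreated libraries. The ratio of the summed mitochondrial mRNAs to the summed members does not depend on the scaling of a library. It was 92.7 and 96.9 in cells labelled IL1R1-KO RT, 117 and 194 for IL1RAP-KO RT and 104 and 92.1 for WT RT, against 26.1 to 31.9 untreated, so the RT and untreated libraries did not overlap. The members' own share of nuclear protein-coding TPM was 0.554% to 0.670% after RT and 0.793% to 0.813% untreated.

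**Figure D5:**
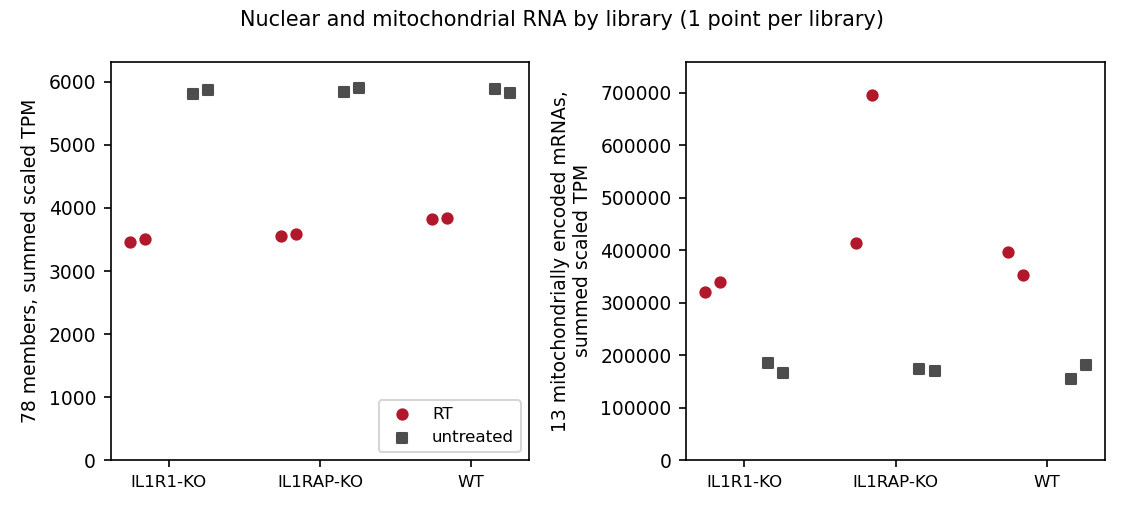
Summed scaled TPM per library on the y axes, from 0, of the 78 members (left) and of the 13 mitochondrially encoded mRNAs (right), by genotype on the x axes, with red circles for RT and grey squares for untreated cells. The RT libraries lie at 3465 to 3841 for the members, below all untreated ones, and above all untreated ones for the mitochondrial mRNAs, with IL1RAP-KO RT replicate 2 the highest.

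In untreated cells the KO genotypes did not differ detectably from WT in any member. None passed an adjusted p under 0.05 with limma in cells labelled IL1R1-KO or in IL1RAP-KO, where 0.183% and 0.118% of all genes did. Their log2 fold changes lay between -0.22 and 0.25 in the cells labelled IL1R1-KO and between -0.26 and 0.23 in IL1RAP-KO cells. At an unadjusted p under 0.05, MRPS33 alone was higher in cells labelled IL1R1-KO, and MRPS25 alone was lower in IL1RAP-KO cells. MRPS33 was at 113 and 111 scaled TPM in cells labelled IL1R1-KO, against 90.9 and 97.3 in WT (log2 fold change 0.25, standard error 0.10, adjusted p = 0.87 from limma). MRPS25 was at 50.8 and 46.4 in IL1RAP-KO, against 55.8 and 60.8 in WT (-0.26, standard error 0.09, adjusted p = 1 from limma). Next in order of p were MRPS6 in the cells labelled IL1R1-KO, at 0.18, and MRPL9 in IL1RAP-KO, at 0.17, both with an adjusted p of 1 from limma.

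After RT some members were lower in the KO genotypes than in WT, but this rested on the scaling and on single libraries. At an adjusted p under 0.05, 12 members were lower in cells labelled IL1R1-KO RT than in WT RT, and 10 were lower in IL1RAP-KO RT, or 15.4% and 12.8%, where 7.34% and 8.98% of all genes were lower. None was higher, where 4.86% and 5.82% of all genes were. With TPM scaled to nuclear protein-coding genes 1 and 3 members were lower, and 26 and 19, or 33.3% and 24.4%, were higher, near the 31% and 26.2% of all genes. The medians of the 78 were then 0.20 and 0.19, where they were -0.15 and -0.10 with the trimmed mean factors. With TPM as deposited these medians were 0.11 and -0.19. Without WT RT replicate 1 the lower members were 1 and 0. MRPS6 had the smallest adjusted p in cells labelled IL1R1-KO RT (-0.79, standard error 0.10, adjusted p = 0.00109 from limma). Past the 2-fold threshold none was called in cells labelled IL1R1-KO RT while 2 were in IL1RAP-KO RT, against 1.89% and 2.06% of all genes. These were MRPL23 (-1.05, standard error 0.19, adjusted p = 0.00951) and MRPS12 (-1.21, standard error 0.25, adjusted p = 0.0153, both from limma). Neither passed without WT RT replicate 1 (adjusted p = 0.0662 and 0.112 from limma) or when only the compared libraries were fitted (adjusted p = 0.219 and 0.241 from limma), and without IL1RAP-KO RT replicate 2 the values were -0.71 and -0.75. MRPL12 was lower in both KO genotypes, at 33.6 and 35.0 scaled TPM in cells labelled IL1R1-KO RT and 37.4 and 27.4 in IL1RAP-KO RT, against 58.5 and 50.4 in WT RT (-0.65 and -0.75, adjusted p = 0.0168 and 0.0108 from limma). MRPL20, of the large subunit, was at 55.7 and 62.6 and at 63.4 and 65, against 80.3 and 77.4 (-0.41 and -0.29, adjusted p = 0.011 and 0.0423 from limma). Both KO comparisons use the same WT RT libraries.

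Tested directly, the response to RT differed from that of WT for MRPS6 alone in cells labelled IL1R1-KO and for no member in IL1RAP-KO with limma, where 2.70% and 1.33% of all genes differed. Without IL1RAP-KO RT replicate 1, 11 members had a lower response in IL1RAP-KO, with 2 called, and 1 had a higher one. The 2 members nearest to the threshold in IL1RAP-KO were MRPL23 (-1.20, standard error 0.28, adjusted p = 0.0731 from limma) and MRPL15 (-0.43, standard error 0.10, adjusted p = 0.081 from limma). In cells labelled IL1R1-KO, MRPL21 came after MRPS6 (-0.43, standard error 0.12, adjusted p = 0.104 from limma). At an unadjusted p under 0.05 the counts were 16 and 12, or 20.5% and 15.4%, near the 17% and 17.4% of all genes. Over the 78, the difference of replicate 2 from replicate 1 in IL1RAP-KO RT correlated with the GC content of the transcript at r = -0.49 (rho = -0.44), and it also did so at -0.51 in untreated WT. MRPS12 with 59.6% and MRPL23 with 64.8% GC had the lowest differences, -0.93 and -0.69 on the log2 scale, against a median GC content of 48.2%. The part of GC content in the IL1RAP-KO results was not tested.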

How the data were processed

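The authors depleted total RNA of ribosomal RNA, made stranded libraries and sequenced them in pairs of reads. Per the labels and the paper's methods, cutadapt 1.15 removed adapters, STAR 2.5.3a placed the reads on GRCh38, and HTSeq gave the number per gene. The authors deposited TPM for 60675 genes, which divide reads by gene length and set each library to the same total, and how gene lengths were chosen was not given in the sources used here.

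TPM were divided by unweighted trimmed mean factors (trims at either end of 30% for M and 5% for A) and fitted as log2(TPM + 1) with limma 3.58.1 in R 4.3.3 over 15303 genes that reached a TPM of 1 in 2 or more libraries. The model had 6 group means, with 6 residual and 3.73 prior degrees of freedom. The fit was tested on simulated data in which a small set of genes changed, evenly up and down, in WT RT alone. That cannot check the scaling where many genes change, as they did after RT. The rule for the members uses no measured value, but it, the lists and the tests were set with earlier results of these data known, and the lists of cytosolic ribosomal proteins and respiratory chain subunits were put together after the files were seen. Members named were those called in any comparison, the 4 lowest and 4 highest average RT changes and levels, and the 2 smallest adjusted p in each comparison with WT. Of the other lists, up to 3 genes with the smallest adjusted p were considered. P-values rest on the spread between the 2 libraries of a group, pooled for each gene over all 6 groups, and not on the compared groups alone. Positions come from GENCODE v44 and promoters from RefSeq. Alternatives were other scalings, a pseudocount of 0.1, no filter, fits on the compared libraries alone, the replicate number as a block and leaving out each library.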

Additional observations from a re-analysis of the deposited data

Results flagged for a closer look

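The response of MRPS6 to RT differed between genotypes by a test of the difference itself. Cells labelled IL1R1-KO minus WT gave a difference of log2 fold changes of -0.97 (standard error 0.14, adjusted p = 0.00782 from limma over all 15303 genes), with no increase in cells labelled IL1R1-KO RT and an increase in WT RT in 2 of 2 libraries. With TPM as deposited it was -0.68 at an adjusted p of 0.134 from limma. SLC5A3, which overlaps MRPS6 on the same strand, had its 2 highest values in the same 2 libraries. Groups of 2 libraries are too small for a test of a single library that stands apart.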

How the results depend on the processing

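Every member called lower after RT kept its direction in every alternative run, and the counts of members lower at an adjusted p under 0.05 in RT against untreated cells moved by over 1.5 times only with TPM scaled to nuclear protein-coding genes, to 41 for cells labelled IL1R1-KO and 43 for IL1RAP-KO. With that scaling 8, 7, 2 and 7 members were higher in cells labelled IL1R1-KO, IL1RAP-KO, WT and the average. In the same order 2, 5, 2 and 3 were called lower. Of all genes 44.9%, 41.1%, 23.3% and 50.4% were higher, and 3.70%, 4.48%, 4.72% and 3.82% were called lower. In KO RT against WT RT that scaling gave 1 lower and 26 higher (33.3%) for cells labelled IL1R1-KO, against 3.26% and 31% of all genes. For IL1RAP-KO it gave 3 lower, 19 higher (24.4%) and 0 called lower, against 3.87%, 26.2% and 1.51%. It also gave 4 members, or 5.13%, with a higher response in cells labelled IL1R1-KO, against 8.25% of all genes. With TPM as deposited 43 were called lower in IL1RAP-KO, 30 in WT and 30 on average, against 16.5%, 10.8% and 10.7% of all genes. With it 0 were higher in IL1RAP-KO and on average, where 11.7% and 23.3% of all genes were. In KO RT against WT RT, TPM as deposited gave 1 lower and 5 higher (1.28% and 6.41%) for cells labelled IL1R1-KO. Of all genes 2.48% and 12.2% were. For IL1RAP-KO 4 were lower, or 5.13%, against 4.54% of all genes. In cells labelled IL1R1-KO 0 members had a lower response, against 0.542% of all genes. With median-of-ratios factors 4 were higher on average, or 5.13%, against 35% of all genes. Without the filter 7 and 5 members were lower in KO RT against WT RT. With only the compared libraries these were 2 and 0, with 0 called in IL1RAP-KO RT, and 0 were higher for RT in IL1RAP-KO. MRPS6 turned to 0.36 with the nuclear protein-coding sum in cells labelled IL1R1-KO, and to -0.021 in IL1RAP-KO with TPM as deposited, which also turned the average of MRPL49 to -0.028. MRPL37 and MRPL15 turned to 0.0056 and 0.090 in cells labelled IL1R1-KO RT against WT RT with the nuclear protein-coding sum. The cause was not tested beyond the shift of the median of all genes given above.

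Leaving out 1 library, members higher for RT were 0 (without replicate 1 of IL1RAP-KO, treated or untreated) to 2 (without IL1RAP-KO RT replicate 2) in IL1RAP-KO and 1 to 3 on average. Members lower in KO RT against WT RT were 1 (without WT RT replicate 1) to 6 (without WT RT replicate 2) in cells labelled IL1R1-KO RT. They were 0 to 19 in IL1RAP-KO, the last without IL1RAP-KO RT replicate 1, with 0 to 4 higher and 0 to 2 called lower. Members with a lower response than WT in IL1RAP-KO were 0 to 11, with 0 to 2 called and 0 to 1 higher, the highest without IL1RAP-KO RT replicate 1. In cells labelled IL1R1-KO 0 to 1 was called lower in that test, the 1 without IL1R1-KO replicate 2, WT RT replicate 1 or replicate 1 of the cells labelled IL1R1-KO RT. Same-numbered libraries deviated together little (correlations of -0.06 to 0.10 over 15 pairs of groups). This cannot decide whether they were handled together, which the labels do not give. The replicate block left 66 members lower in WT, 64 in cells labelled IL1R1-KO, 65 in IL1RAP-KO and 10 in each KO RT against WT RT. With 2 libraries per group and no depth, small changes cannot be resolved. Shares of all genes are not given here for the fits without 1 library, without the filter, on the compared libraries alone or with the block. The counts from those fits therefore cannot be set against the background.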
